A study of Mus musculus with 18 samples.

Results

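Interferon response genes were followed in mouse liver across loss of Ftcd and exposure to a liver carcinogen. They were taken as 39 genes listed by symbol, all of which were found among the 58126 gene rows of the expression table, 55487 of which carried a symbol.

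Type I interferons and interferon gamma bind receptors that activate Janus kinases, which in turn phosphorylate STAT proteins. A complex that holds Stat2 and Irf9 binds the interferon-stimulated response element (ISRE) in promoters, and STAT dimers activated by interferon gamma bind the gamma-activated sequence (GAS). The induced genes code for sensors of foreign RNA and DNA, antiviral effectors, GTPases that act on pathogens inside cells, and chemokines that attract T cells. In liver, hepatocytes, Kupffer cells, endothelial cells and leukocytes can all express them.

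Ftcd codes for formimidoyltransferase cyclodeaminase, a folate-dependent enzyme of histidine breakdown that is abundant in hepatocytes. The study compared wild-type mice (WT) with mice carrying a liver-specific Ftcd knockout (LKO), with and without diethylnitrosamine (DEN), which hepatocytes convert into a DNA-alkylating agent. A dose of 20 mg/kg DEN was injected into the peritoneum at postnatal day 14, with tissue collected after 12 months. Untreated livers came from mice aged 12 months. The 18 RNA-sequencing libraries formed 5 groups: untreated WT liver (3), untreated LKO liver (3), DEN WT nontumour liver (6), DEN LKO nontumour liver (3) and DEN LKO tumour (3). The series is titled as a study of C57BL/6 mice, the labels do not give the Cre driver of the knockout, and tumours were sequenced from LKO mice only. Nothing in the labels says whether replicates were separate animals, so p-values measure the spread between these libraries, which may be partly technical.

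Expression was given as TPM, a transcript share, which is scaled by gene length, so that levels of different genes can be set side by side. Several library features bear on every comparison below. Ftcd was at 0.10 to 3.16 TPM in the 9 libraries labelled LKO and at 61.2 to 106.1 TPM in 6 of the 9 libraries labelled WT. The other 3 libraries labelled WT, untreated WT 3, DEN WT 1 and DEN WT 2, had 1.77, 2.36 and 2.50 TPM and did not match their label. All 9 WT-labelled libraries carried Xist and lacked Y-linked transcripts, whereas 7 of the 9 LKO-labelled libraries were XY, including all 3 untreated LKO libraries, so that genotype and sex cannot be told apart in untreated liver. Mitochondrially encoded transcripts made up 4.24% to 38.8% of TPM. Hepatocyte markers were abundant throughout (Alb, 6758 to 59439 TPM).

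Promoters of the genes were examined first, since ISRE and GAS are the DNA elements through which interferon acts on them. The RefSeq promoter table (GRCm38.p6, the mm10 assembly) held 36 start sites of 29 of the 39 genes, and the 250 bases before each start were searched on both strands. ISRE was searched as GAAA followed, after any 2 bases, by a further GAAA (on the other strand TTTC, any 2 bases and TTTC), and GAS as TTCNNNGAA, which reads the same on both strands. An ISRE match was present for 15 of the 29 genes (51.7%), against 3.46% of the 27025 genes of the whole promoter table searched in the same way. The 15 were Bst2, Cxcl10, Gbp2, Gbp3, Gbp7, Ifit1, Ifit3, Igtp, Irgm1, Isg15, Oas1a, Oas3, Rsad2, Stat2 and Trim30a. GAS matches occurred for 7 of the 29 genes (24.1%), against 8.13% of all genes: Bst2, Gbp7, Ifit2, Igtp, Irf1, Isg20 and Oas1a. In Bst2 the GAS match overlapped an ISRE match. A match is a run of letters and not a mapped binding site.

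The windows below belong to genes whose values the later paragraphs turn on, and capitals mark the motif. Isg15 (mm10 chr4:156200819-156201068, minus strand) held 3 overlapping ISRE matches, the nearest ending 56 bases before the start. Ifit3 (chr19:34583279-34583528, plus strand) held 2 separate matches. Gbp3 (chr3:142559794-142560043, plus strand) and Irgm1 (chr11:48871421-48871670, minus strand) each held 2 overlapping matches close to the start, ending 29 and 14 bases before it. The other listed start of Gbp3 held no match. Igtp (chr11:58199306-58199555, plus strand) held 1 ISRE match ending 24 bases before the start, with a GAS match upstream of it that is not capitalised. Irf1 (chr11:53769764-53770013, plus strand) held no ISRE match, and its capitals mark the GAS match. The other listed start of Irf1 held neither motif. Trim30a (chr7:104465194-104465443, minus strand), whose group mean ran opposite to the other genes in untreated liver, held 1 ISRE match at this start and none at its other listed start.
Isg15 promoter: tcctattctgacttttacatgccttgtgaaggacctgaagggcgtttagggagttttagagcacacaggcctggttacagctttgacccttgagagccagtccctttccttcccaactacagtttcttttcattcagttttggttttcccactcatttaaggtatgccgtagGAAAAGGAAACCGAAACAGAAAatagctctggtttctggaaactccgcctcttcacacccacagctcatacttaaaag
Ifit3 promoter: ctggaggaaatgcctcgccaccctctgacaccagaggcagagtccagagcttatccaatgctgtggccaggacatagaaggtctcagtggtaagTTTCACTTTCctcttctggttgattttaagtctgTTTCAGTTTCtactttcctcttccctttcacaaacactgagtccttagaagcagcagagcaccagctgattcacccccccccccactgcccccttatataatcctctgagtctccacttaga
Gbp3 promoter: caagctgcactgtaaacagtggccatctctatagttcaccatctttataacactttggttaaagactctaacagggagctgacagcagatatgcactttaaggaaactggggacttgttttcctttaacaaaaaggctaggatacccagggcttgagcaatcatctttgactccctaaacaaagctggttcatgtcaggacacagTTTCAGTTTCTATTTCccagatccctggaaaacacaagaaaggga
Irgm1 promoter: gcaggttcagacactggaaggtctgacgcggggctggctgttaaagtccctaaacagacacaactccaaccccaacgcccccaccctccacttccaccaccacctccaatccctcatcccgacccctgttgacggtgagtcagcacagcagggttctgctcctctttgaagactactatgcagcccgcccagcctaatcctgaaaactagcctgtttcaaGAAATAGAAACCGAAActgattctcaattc
Igtp promoter: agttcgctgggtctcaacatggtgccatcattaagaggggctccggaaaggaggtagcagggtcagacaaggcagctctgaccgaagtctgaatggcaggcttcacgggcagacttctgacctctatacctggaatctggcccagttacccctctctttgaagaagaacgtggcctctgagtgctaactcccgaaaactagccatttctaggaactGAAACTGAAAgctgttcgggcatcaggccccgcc
Irf1 promoter: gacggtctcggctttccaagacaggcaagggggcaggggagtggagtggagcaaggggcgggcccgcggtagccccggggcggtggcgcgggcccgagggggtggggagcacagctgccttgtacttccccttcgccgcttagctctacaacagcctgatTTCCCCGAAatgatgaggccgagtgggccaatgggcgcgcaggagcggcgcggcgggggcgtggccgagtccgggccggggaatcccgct
Trim30a promoter: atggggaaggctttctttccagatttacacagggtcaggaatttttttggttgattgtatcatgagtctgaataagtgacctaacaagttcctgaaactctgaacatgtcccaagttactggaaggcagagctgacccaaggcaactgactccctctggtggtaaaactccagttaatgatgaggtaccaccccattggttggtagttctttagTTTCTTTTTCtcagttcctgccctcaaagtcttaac

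Levels differed widely between the genes. Ifitm3, a membrane protein that blocks virus entry, was the most abundant at 353 to 1553 TPM and alone supplied 51.2% to 65.8% of the summed TPM of the 39 genes. Together with Bst2 and Ifi27 it supplied 68.5% to 87.1%, so a plain sum over the genes mostly follows these 3. At the other end, Mx1 stayed below 1 TPM in all 18 libraries, and Ifit2, Rsad2 and Oas3 reached 1 TPM in only 2 libraries each. A gene was tested if 3 or more libraries had 1 TPM of it, which kept 35 of the 39 and left out these 4.

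On the scale of log2(TPM + 1), the mean over the 39 genes was 2.91 ± 0.40 (SD, n = 3) in untreated WT, 2.18 ± 0.20 (n = 3) in untreated LKO, and 2.90 ± 0.57 (n = 6) in DEN WT. LKO mice given DEN had 2.68 ± 0.29 (n = 3) in nontumour liver and 2.99 ± 0.62 (n = 3) in tumour. The ranges of the other 4 groups overlapped one another. Untreated LKO, at 2.05 to 2.41, lay below untreated WT, at 2.60 to 3.36, and overlapped the lower end of the 3 DEN groups. Spread within a group was wide, as the map of all genes by library shows.

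**Figure D1:**
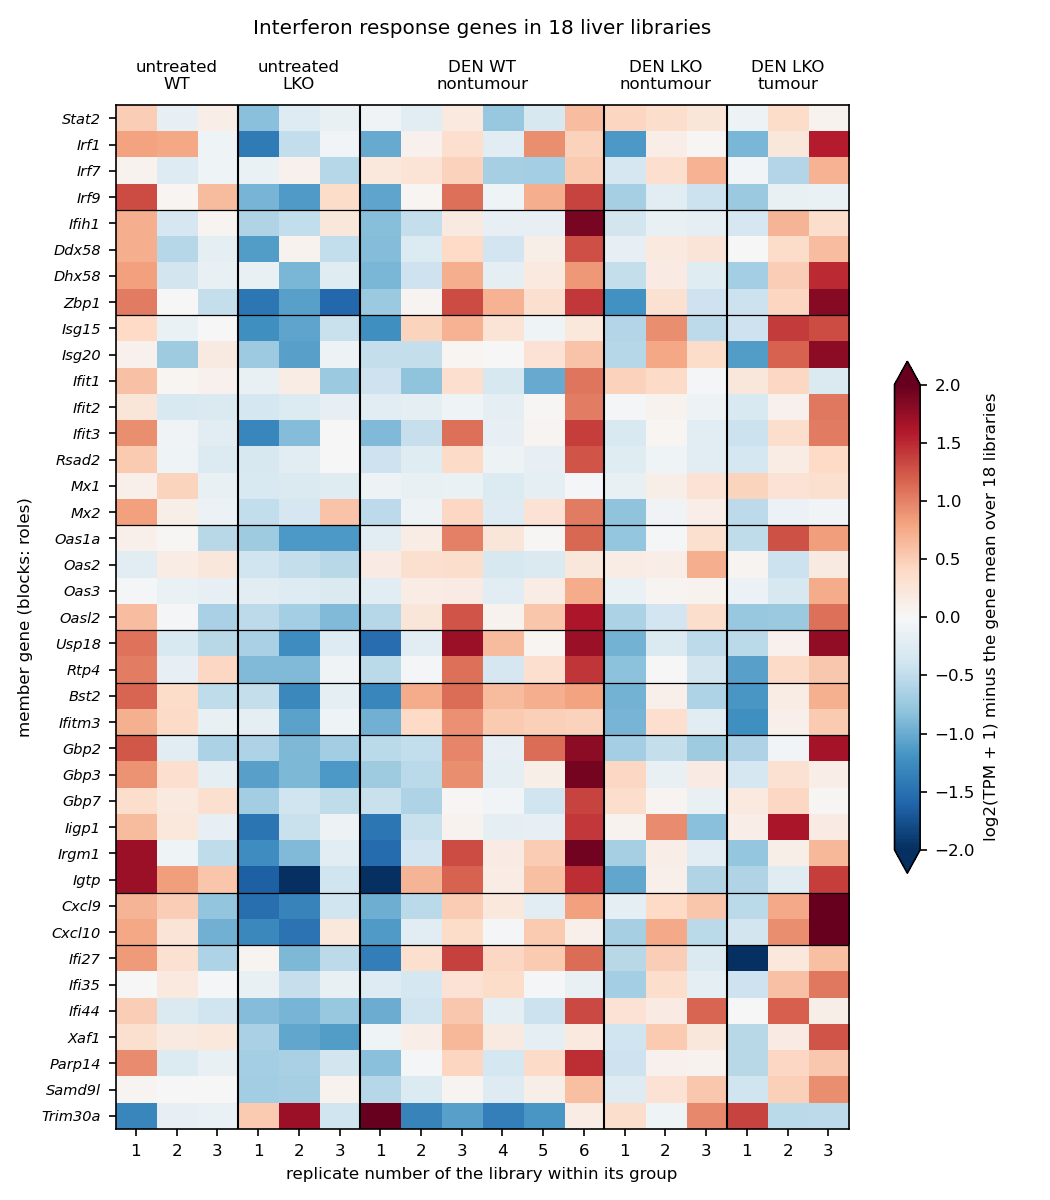
Heat map of the 39 interferon response genes (vertical axis, blocks separate roles) in 18 libraries (horizontal axis, replicate number within each group). Colour gives log2(TPM + 1) minus the gene's mean over the 18 libraries, with values beyond -2 or 2 drawn in the end colours. Most genes are low in the untreated LKO columns and in DEN WT 1, and high in DEN WT 6, DEN LKO tumour 3 and untreated WT 1. Trim30a runs opposite in most of these columns, but not in untreated LKO 3 or DEN WT 6.

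Many of the genes were high or low in the same libraries. DEN WT 6 was the highest of the 18 libraries for 17 genes and DEN LKO tumour 3 for 12. These libraries were also the highest for 28.0% and 26.3% of all 13872 tested genes, so high values there were not limited to interferon response genes. Lowest values fell most often in untreated LKO 1 (11 genes), DEN WT 1 (8) and untreated LKO 3 (6), which were the lowest for 6.80%, 20.8% and 3.84% of all tested genes. The median gene stood 1.08 above its own mean on the log2 scale in DEN WT 6, against 0.55 for all tested genes, and 0.68 against 0.36 in untreated WT 1. In untreated LKO 1 and 2 the corresponding medians were -0.68 against -0.37 and -0.87 against -0.49.

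**Figure D2:**
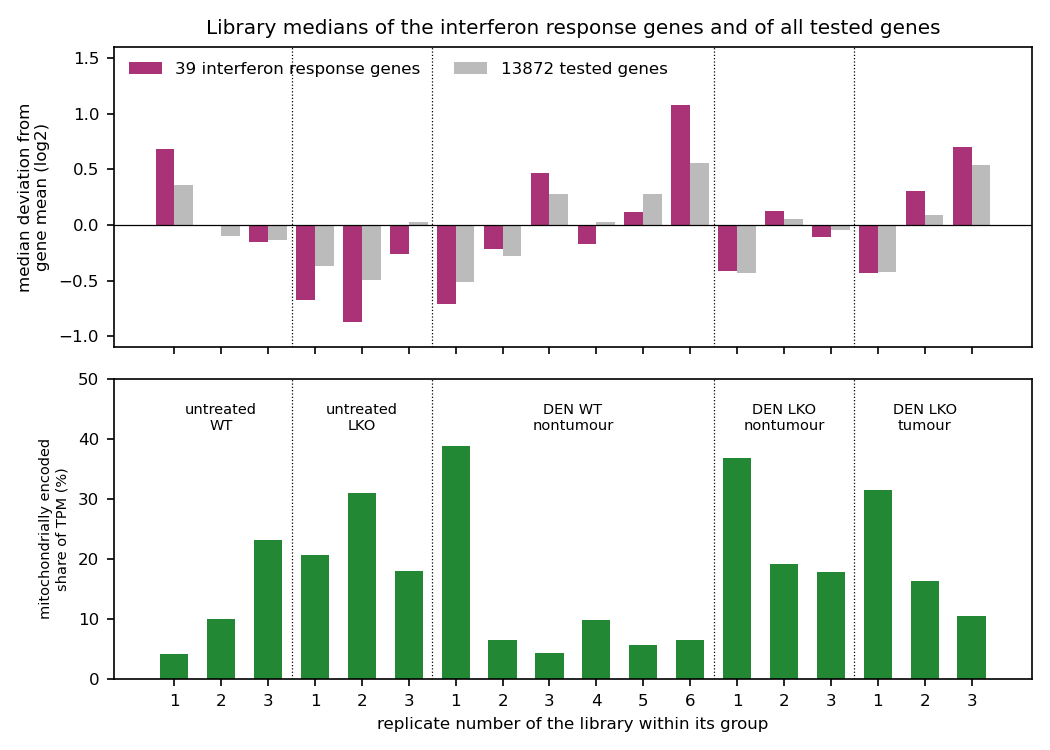
Upper panel: for each of the 18 libraries (horizontal axis), the median deviation from the gene mean in log2 units for the 39 interferon response genes and for the 13872 tested genes. Lower panel: mitochondrially encoded share of TPM in percent. The 4 libraries with shares above 30% have gene medians from -0.87 to -0.42, and DEN WT 6 has the highest bar at 1.08.

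Library features moved with these medians. Mitochondrial share was 38.8% in DEN WT 1, 36.9% in DEN LKO nontumour 1, 31.4% in DEN LKO tumour 1 and 30.9% in untreated LKO 2, and the median deviation of the 39 genes there was -0.71, -0.42, -0.43 and -0.87. The medians of all tested genes in these libraries were -0.51, -0.44, -0.42 and -0.49, so in DEN LKO nontumour 1 and tumour 1 the interferon response genes were at the level of all genes. The leukocyte gene Ptprc (CD45) was at 4.05 TPM in DEN WT 6, 2.69 TPM in DEN LKO tumour 3 and 3.26 TPM in DEN WT 5, against a median of 0.48 TPM over all libraries. DEN WT 5 shared that high Ptprc with a gene median of only 0.11. In bulk tissue, fewer cells of a type and less RNA per cell cannot be told apart.

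Transcription factors of the response were present in every library. Irf7, the factor that amplifies type I interferon production, was the most abundant of the 4 (ENSMUSG00000025498, chr7:141262706-141266481) at 41.4, 32.6 and 37.0 TPM in untreated WT (replicates 1, 2 and 3 in that order, here and below) and 35.8, 41.7 and 26.0 TPM in untreated LKO. After DEN, Irf7 was at 24.0 to 56.9 (median 46.5) TPM in WT, 30.8, 49.6 and 64.3 TPM in LKO nontumour liver and 37.8, 25.6 and 64.3 TPM in LKO tumour. All groups overlapped, and Irf7 had 1 of the smallest untreated differences, -0.12 in log2 with an SE of 0.45, whose sign turned under the other scalings. Irf1, which binds ISRE and is itself induced by interferon gamma, was at 13.4, 13.1 and 6.80 TPM in untreated WT and 2.11, 4.89 and 6.95 TPM in untreated LKO. Irf1 after DEN was at 3.11 to 14.8 (median 8.60) TPM in WT, 2.71, 8.09 and 7.39 TPM in LKO nontumour and 3.40, 8.65 and 23.5 TPM in tumour. Untreated LKO 3, at the level of untreated WT 3, made the untreated groups overlap, and tumour 3 held the highest value of the series.

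Irf9, the DNA-binding subunit of the type I complex (ENSMUSG00000002325, chr14:55603571-55610030), was at 14.2, 5.35 and 8.60 TPM in untreated WT and 2.24, 1.82 and 7.01 TPM in untreated LKO. After DEN it was at 1.99 to 14.9 (median 7.29) TPM in WT, 2.91, 4.27 and 3.61 TPM in LKO nontumour and 2.69, 4.58 and 4.65 TPM in tumour. The untreated groups overlapped through LKO 3 and WT 2, and every LKO library given DEN was at or below 4.65 TPM while WT libraries reached 14.9 TPM. Exons of Irf9 overlap Rnf31 on the same strand, so reads there can be assigned to either. Stat2, the partner of Irf9, was at 10.5, 6.25 and 7.97 TPM in untreated WT and 3.55, 5.83 and 6.35 TPM in untreated LKO. Stat2 was at 3.84 to 11.6 (median 6.36) TPM in DEN WT, 9.94, 9.40 and 8.63 TPM in DEN LKO nontumour and 6.65, 9.58 and 7.53 TPM in tumour. All 3 nontumour LKO libraries given DEN were above all 3 untreated LKO libraries.

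Sensors were low to moderate. Zbp1, a sensor of Z-form nucleic acid that can trigger necroptosis (ENSMUSG00000027514, chr2:173206612-173218923), was at 20.3, 9.32 and 6.39 TPM in untreated WT and 2.81, 3.88 and 2.48 TPM in untreated LKO. With DEN, Zbp1 was at 5.20 to 26.6 (median 13.7) TPM in WT, 3.45, 11.8 and 6.77 TPM in LKO nontumour and 6.67, 12.9 and 35.3 TPM in tumour. Every untreated LKO library was below every untreated WT library. Ddx58 (RIG-I), which senses viral RNA ends, was at 7.19, 2.35 and 3.38 TPM in untreated WT and 1.29, 4.22 and 2.55 TPM in untreated LKO. DEN libraries held Ddx58 at 1.74 to 11.1 (median 3.76) TPM in WT, 3.45, 4.71 and 4.94 TPM in LKO nontumour and 3.97, 5.40 and 6.59 TPM in tumour. Ifih1 (MDA5), the sensor of long double-stranded RNA, was at 3.95, 1.38 and 2.12 TPM in untreated WT and 0.98, 1.14 and 2.51 TPM in untreated LKO. Both RNA sensors overlapped between genotypes, and for both DEN WT 6 was the highest library (11.1 and 10.1 TPM). Ifih1 in the other DEN groups was at 1.34, 1.72 and 1.64 TPM in LKO nontumour and 1.37, 3.82 and 2.85 TPM in tumour. Dhx58, a regulator of the other RNA sensors, ranged from 1.04 to 9.82 TPM over all libraries.

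Among the IFIT and ISG effectors, Isg15, a ubiquitin-like protein that is conjugated to other proteins (ENSMUSG00000035692, chr4:156199424-156200818), was the most abundant. Isg15 was at 40.1, 27.3 and 30.2 TPM in untreated WT and 12.3, 13.9 and 21.9 TPM in untreated LKO, with no overlap. After DEN, Isg15 was at 12.3 to 49.5 (median 35.9) TPM in WT, 19.7, 58.5 and 20.7 TPM in LKO nontumour and 22.4, 81.2 and 76.2 TPM in tumour. Tumours 2 and 3 were the highest libraries of the series, while tumour 1 lay within the nontumour range. Ifit3, which like Ifit1 acts against viral RNA, was at 16.5, 7.76 and 6.91 TPM in untreated WT and 2.71, 4.01 and 8.22 TPM in untreated LKO. In the DEN libraries Ifit3 was at 3.96 to 23.0 (median 7.89) TPM in WT, 6.41, 8.47 and 6.87 TPM in LKO nontumour and 5.83, 10.8 and 17.9 TPM in tumour. Ifit1 was at 4.66, 2.90 and 3.01 TPM in untreated WT, 2.40, 3.20 and 1.25 TPM in untreated LKO and 0.89 to 6.97 (median 1.94) TPM in DEN WT. It was at 4.22, 3.93 and 2.70 TPM in DEN LKO nontumour and 3.41, 4.06 and 2.08 TPM in tumour. Both Ifit genes overlapped in every comparison.

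Rsad2 (viperin), an antiviral effector that rises strongly in an acute interferon response, was near the floor of the table, and so was Mx1. Rsad2 was at 1.04, 0.34 and 0.18 TPM in untreated WT, 0.14, 0.23 and 0.44 TPM in untreated LKO and 0.07 to 2.40 (median 0.30) TPM in DEN WT. Rsad2 in LKO given DEN was at 0.21, 0.34 and 0.23 TPM in nontumour liver and 0.12, 0.58 and 0.88 TPM in tumour. Only untreated WT 1 and DEN WT 6 passed 1 TPM. Mx1 was at 0.50, 0.90 and 0.26 TPM in untreated WT and 0.13, 0.15 and 0.18 TPM in untreated LKO, which did not overlap, and at 0.16 to 0.36 (median 0.27) TPM in DEN WT. Nontumour LKO liver given DEN had 0.26, 0.52 and 0.71 TPM of Mx1 and tumour 0.91, 0.70 and 0.75 TPM. Depth cannot be recovered from TPM, so the precision of values this low is unknown.

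The OAS enzymes make an oligoadenylate messenger that activates RNase L. Oas1a was at 2.94, 2.74 and 1.52 TPM in untreated WT and 1.24, 0.67 and 0.66 TPM in untreated LKO. With DEN, Oas1a was at 2.14 to 7.20 (median 3.21) TPM in WT, 1.15, 2.64 and 3.58 TPM in LKO nontumour and 1.58, 7.87 and 5.58 TPM in tumour. Oas2 (ENSMUSG00000032690, chr5:120730333-120749853) was at 0.50, 0.91 and 1.02 TPM in untreated WT and 0.31, 0.24 and 0.18 TPM in untreated LKO. Both genes were lower in each untreated LKO library than in any untreated WT library. For Oas2, the DEN groups were at 0.38 to 1.20 (median 0.98) TPM in WT, 0.92, 0.89 and 1.85 TPM in LKO nontumour and 0.80, 0.28 and 0.96 TPM in tumour. Oas3 did not exceed 1.13 TPM, and Oasl2 ranged from 0.50 to 7.54 TPM. Members of the OAS, IFIT, GBP, MX and TRIM30 families resemble one another in sequence, so their reads may be divided between copies in an uncertain way.

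Usp18, which removes Isg15 from proteins and dampens the type I receptor, was at 8.89, 2.77 and 2.15 TPM in untreated WT and 1.96, 0.97 and 2.89 TPM in untreated LKO. After DEN, Usp18 was at 0.61 to 14.4 (median 4.995) TPM in WT, 1.42, 2.82 and 2.22 TPM in LKO nontumour and 2.21, 3.96 and 14.9 TPM in tumour. Its 3 highest libraries, all above 14 TPM, were DEN LKO tumour 3, DEN WT 6 and DEN WT 3. Bst2 (tetherin), which holds budding virus at the cell surface, was at 419, 239.6 and 129 TPM in untreated WT and 132, 75.6 and 161 TPM in untreated LKO. Bst2 in DEN livers was at 74.6 to 403 (median 309) TPM in WT, 95.7, 198 and 121 TPM in LKO nontumour and 81.8, 204 and 304 TPM in tumour. Apart from DEN WT 1, every DEN WT library exceeded all nontumour LKO libraries for Bst2. Ifitm3 was at 1348, 1072 and 746 TPM in untreated WT and 725, 392 and 780.4 TPM in untreated LKO. Ifitm3 was at 424 to 1553 (median 1148) TPM in DEN WT, 431, 1042 and 717 TPM in DEN LKO nontumour and 353, 889 and 1193 TPM in tumour. For both membrane genes the 3 lowest DEN libraries were DEN WT 1, DEN LKO nontumour 1 and tumour 1, the ones with mitochondrial shares above 31%.

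GTPases gave the largest single difference. Igtp (Irgm3), an immunity-related GTPase that acts on pathogen vacuoles and is typical of interferon gamma (ENSMUSG00000078853, chr11:58199556-58207591), was at 56.4, 30.4 and 24.7 TPM in untreated WT and 4.69, 3.24 and 12.3 TPM in untreated LKO. In DEN livers Igtp was at 3.13 to 48.0 (median 26.4) TPM in WT, 7.51, 17.9 and 10.6 TPM in LKO nontumour and 10.5, 13.8 and 44.6 TPM in tumour. The untreated genotypes were apart by a clear gap, whereas the DEN WT range enclosed every LKO value after DEN, with DEN WT 1 the lowest of the series. Igtp shares exon sequence with Irgm2 on the same strand, so its reads may include some of that gene. Gbp3, a guanylate-binding protein (ENSMUSG00000028268, chr3:142560026-142573209), was at 5.65, 3.50 and 2.14 TPM in untreated WT and 0.68, 0.91 and 0.60 TPM in untreated LKO. Gbp3 was at 1.18 to 12.5 (median 2.50) TPM in DEN WT, 3.76, 2.21 and 3.01 TPM in DEN LKO nontumour and 1.83, 3.39 and 2.92 TPM in tumour. Untreated LKO stood apart from all 15 other libraries, none of which was below 1.18 TPM.

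Gbp2, of the same family, was at 4.17, 0.89 and 0.41 TPM in untreated WT and 0.42, 0.18 and 0.35 TPM in untreated LKO. Gbp2 after DEN was at 0.51 to 6.60 (median 2.12) TPM in WT, 0.37, 0.58 and 0.34 TPM in LKO nontumour and 0.42, 1.10 and 5.90 TPM in tumour. Single libraries (untreated WT 1, DEN WT 3, 5 and 6, and tumour 3) passed 3 TPM and the rest stayed at or below 1.10 TPM. Iigp1, the immunity-related GTPase with the highest level here, was at 51.5, 38.4 and 29.4 TPM in untreated WT and 11.4, 24.1 and 30.7 TPM in untreated LKO. Iigp1 was at 11.6 to 89.8 (median 29.1) TPM in DEN WT, 34.8, 64.4 and 18.0 TPM in DEN LKO nontumour and 36.2, 104 and 37.2 TPM in tumour. Its groups overlapped in each of the 5 pairs compared. Gbp7 ranged from 0.44 to 4.94 TPM and Irgm1 from 2.67 to 39.6 TPM over the 18 libraries.

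**Figure D3:**
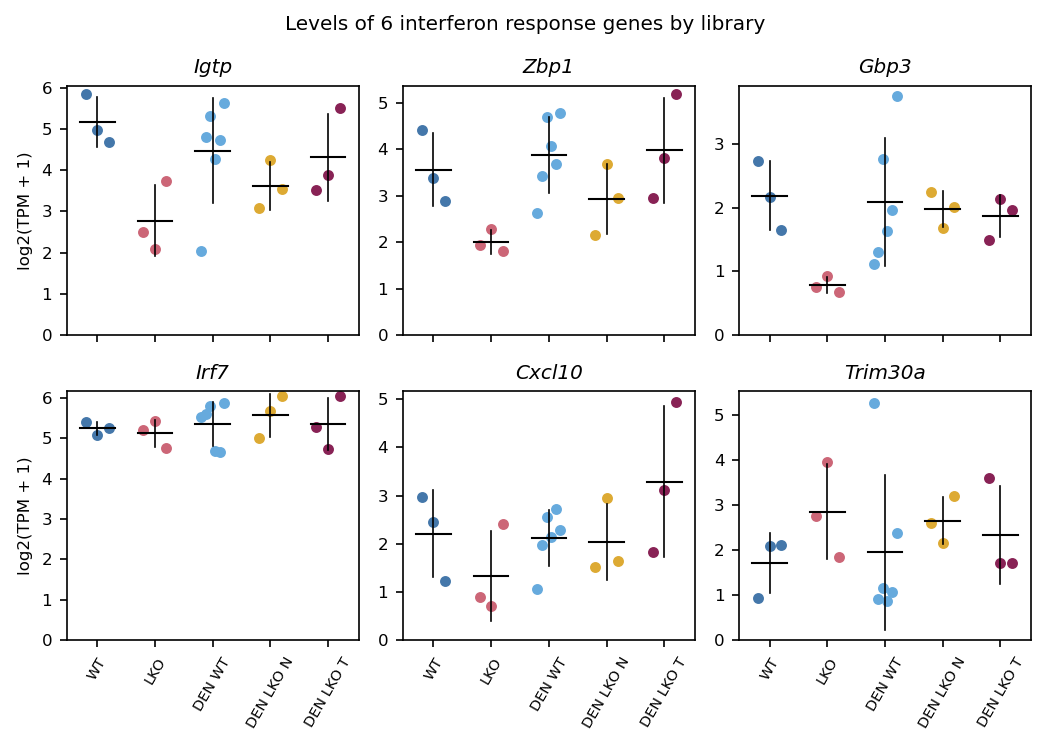
Levels of 6 interferon response genes as log2(TPM + 1) (vertical axes) in the 5 groups (horizontal axes; N, nontumour; T, tumour); each point is 1 library, horizontal bars are group means and vertical lines ± 1 SD (n = 6 in DEN WT, n = 3 in the others). For Igtp, Zbp1 and Gbp3 all 3 untreated LKO points lie below all 3 untreated WT points, while for Irf7, Cxcl10 and Trim30a they do not.

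The chemokines Cxcl9 and Cxcl10 attract T cells through the receptor CXCR3. Cxcl9 was at 7.75, 6.63 and 2.15 TPM in untreated WT and 0.92, 1.17 and 3.15 TPM in untreated LKO. DEN libraries held Cxcl9 at 1.78 to 8.64 (median 4.50) TPM in WT, 3.79, 6.17 and 6.98 TPM in LKO nontumour and 2.76, 8.18 and 21.8 TPM in tumour. All nontumour LKO libraries given DEN were above all untreated LKO libraries. Cxcl10 was at 6.79, 4.46 and 1.33 TPM in untreated WT and 0.86, 0.63 and 4.28 TPM in untreated LKO. Cxcl10 was at 1.08 to 5.56 (median 3.65) TPM in DEN WT, 1.88, 6.69 and 2.12 TPM in DEN LKO nontumour and 2.54, 7.64 and 29.6 TPM in tumour. Tumour 3 alone carried the highest value of the series for both chemokines. Cxcl10 exons overlap Art3 on the other strand, and whether counting used strand is not given in the sources used here. The same limit applies to Irf7 with Phrf1 (up to 17.9 TPM) and Usp18 with Gm44148 (up to 5.80 TPM). On the same strand, Rtp4 overlaps Gm45338 (up to 7.86 TPM) and Gbp7 overlaps Gm43802 (up to 1.74 TPM).

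Of the remaining genes, Ifi27, a mitochondrial protein, was at 178, 123 and 64.0 TPM in untreated WT and 102, 52.6 and 68.2 TPM in untreated LKO. Ifi27 was at 37.2 to 257 (median 137) TPM in DEN WT, 67.1, 139 and 80.8 TPM in DEN LKO nontumour and 23.8, 114 and 151 TPM in tumour. All its groups overlapped. Xaf1, a pro-apoptotic interferon target (ENSMUSG00000040483, chr11:72301629-72313733), was at 15.9, 14.3 and 14.6 TPM in untreated WT and 7.66, 5.60 and 5.22 TPM in untreated LKO. After DEN, Xaf1 was at 10.8 to 20.5 (median 14.1) TPM in WT, 9.22, 18.4 and 14.9 TPM in LKO nontumour and 8.21, 14.1 and 31.3 TPM in tumour. The 3 untreated LKO libraries were the 3 lowest of all 18 for Xaf1. Ifi44 was at 2.00, 0.75 and 0.63 TPM in untreated WT and 0.17, 0.12 and 0.27 TPM in untreated LKO. DEN livers held Ifi44 at 0.08 to 4.36 (median 0.75) TPM in WT, 1.62, 1.39 and 3.81 TPM in LKO nontumour and 1.13, 3.91 and 1.33 TPM in tumour. Apart from DEN WT 1, at 0.080 TPM, no library outside untreated LKO was below 0.60 TPM.

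Trim30a, a RING-type ubiquitin ligase that is induced by inflammatory signals (ENSMUSG00000030921, chr7:104409025-104465193), showed another order. It was at 0.92, 3.25 and 3.34 TPM in untreated WT and 5.84, 14.6 and 2.60 TPM in untreated LKO. After DEN, Trim30a was at 0.84 to 37.9 (median 1.19) TPM in WT, 5.07, 3.49 and 8.25 TPM in LKO nontumour and 11.1, 2.28 and 2.29 TPM in tumour. Its 4 highest libraries were DEN WT 1 (37.9 TPM), untreated LKO 2 (14.6), DEN LKO tumour 1 (11.1) and DEN LKO nontumour 3 (8.25), and the first 3 of these had mitochondrial shares above 30%. Its neighbours on chromosome 7, chosen after these values were seen, did not share the order: Trim30d was at 0.38 to 3.79 TPM with its highest value in DEN WT 6, and Trim30b and Trim30c did not exceed 0.43 and 0.22 TPM.

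Without DEN, nearly all interferon response genes had lower means in liver labelled LKO than in liver labelled WT. On the log2(TPM + 1) scale, 38 of 39 had a lower group mean and Trim30a alone a higher one, at 1.15. The median difference was -0.76, against -0.33 for all 13872 tested genes, of which 76.1% were lower, so most tested genes were shifted in the same direction. Relative to that shift the genes had a median of -0.43. When TPM columns were rescaled by median ratios, which moved the median of all genes to 0.02, the median of the 39 was -0.41 and 36 were lower, with Irf7 and Ifi35 turning to the other side.

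None of the 35 tested genes passed limma at an adjusted p under 0.05 (0.433% of all genes did), and 5 had an unadjusted p under 0.05, all lower in LKO (4.15% of all genes in either direction). The largest was Igtp at -2.39 (SE 0.76, limma adjusted p = 0.494). Zbp1 was at -1.55 (SE 0.62), Gbp3 at -1.40 (SE 0.53), Irf9 at -1.22 (SE 0.56) and Xaf1 at -1.17 (SE 0.42), with limma adjusted p from 0.795 to 0.831.

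For 13 of the 39 genes all 3 untreated LKO libraries were below all 3 untreated WT libraries, and for none above. Of the tested genes 11 of 35 were separated downward, against 8.97% of all tested genes, and the upward share of all tested genes was 2.45%. By role they were Zbp1 among the 4 sensors, Isg15 and Mx1 among the 8 effectors, Oas1a, Oas2 and Oas3 among the 4 OAS genes, Gbp3, Gbp7 and Igtp among the 6 GTPases, and Ifi35, Ifi44, Xaf1 and Parp14 among the 7 others. None of the 4 transcription factors, the 2 chemokines, the 2 membrane genes, Usp18 or Rtp4 was separated. Of the separated genes with a promoter window 6 of 9 held an ISRE match, and of those that overlapped 9 of 20. The medians by role ran from -0.45 for the effectors to -1.02 for the GTPases and -1.04 for the chemokines.

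Several marker lists for liver cells had lower means in untreated LKO. Hepatocyte markers summed to 17987 to 37712 TPM in LKO and 36603 to 56205 TPM in WT, lower for 5 of 6 genes with 1 separated. Summed T and NK cell markers were at 1.83 to 2.08 TPM in LKO and 4.10 to 7.95 TPM in WT, with 1 of 8 markers separated. Summed Kupffer cell and macrophage markers were at 39.1 to 70.1 TPM against 63.9 to 217.6 TPM, with 3 of 9 separated, and the leukocyte pair Ptprc and Coro1a at 2.39 to 3.02 TPM against 3.42 to 8.43 TPM. Endothelial markers had a lower mean for 5 of 5 genes and B cell markers for 4 of 4. Cholangiocyte markers had a higher mean for 3 of 4, and neutrophil markers were higher for 2 and lower for 2. Of the 4 markers of plasmacytoid dendritic cells, strong makers of type I interferon, the defining Siglech and Ccr9 did not exceed 0.29 and 0.06 TPM in any library, and Klk1 0.57 TPM. The list's sum, 0.91 to 26.9 TPM over all libraries, mostly came from Pld4, with a mean of 0.79 TPM in untreated LKO and 2.67 TPM in untreated WT. Of these 4 markers, 2 had a higher and 2 a lower mean in untreated LKO, with 1 separated downward. The part of cell composition in the lower interferon response genes was not tested.

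Leaving out the low-Ftcd library untreated WT 3, with the 2 such DEN WT libraries, gave a median of -0.99, against -0.41 for all tested genes, and 23 separated genes (21.0% of all tested genes). With mitochondrial share as a covariate (4.24%, 10.0% and 23.2% in untreated WT; 20.6%, 30.9% and 17.9% in LKO) the median was -0.14, against 0.03 for all tested genes, 29 genes were lower and Trim30a was at -0.10. With a term for XX or XY the median was -1.51, against -0.95 for all tested genes. That term rests on DEN LKO nontumour 1 and tumour 1, the only XX libraries labelled LKO, which also had high mitochondrial shares. The count of separated genes was 28 without untreated LKO 3 (40.2% of all tested genes).

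**Figure D4:**
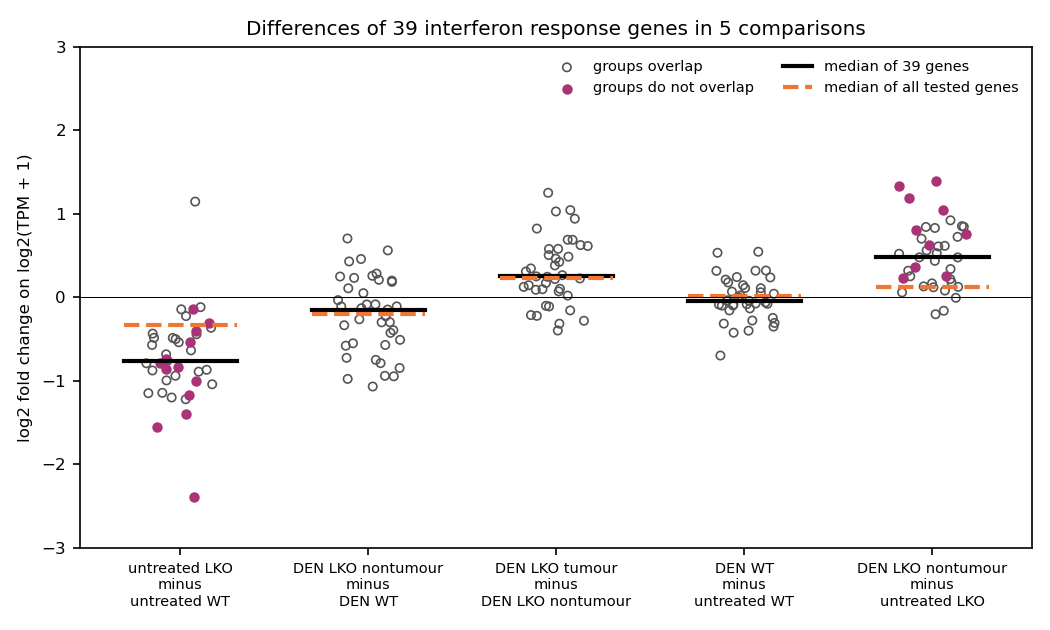
Log2 fold changes on log2(TPM + 1) (vertical axis) of the 39 interferon response genes in 5 comparisons (horizontal axis); filled points are genes whose groups do not overlap, black bars the median of the 39 genes and dashed bars the median of the 13872 tested genes. Filled points occur in untreated LKO minus untreated WT, 13 and all below 0, and in DEN LKO nontumour minus untreated LKO, 10 and all above 0.

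After DEN, the genotypes differed little in nontumour liver over the interferon response genes as a whole. In LKO 26 genes had lower and 13 higher means than in WT, and the median difference of -0.15 was close to the -0.20 of all tested genes. With median-ratio scaling 19 were lower and 20 higher. The lowest values belonged to Gbp2 at -1.07 (SE 0.56), Usp18 at -0.98 (SE 0.64), Zbp1 at -0.95 (SE 0.54) and Bst2 at -0.94 (SE 0.55). The highest were Trim30a at 0.70 (SE 0.80) and Ifi44 at 0.56 (SE 0.43).

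No interferon response gene passed limma in this comparison (0.0577% of all genes did; smallest adjusted p 0.397, Gbp2) and none had an unadjusted p under 0.05, although 13.1% of all tested genes did. None was separated between groups in either direction, against 2.33% of all tested genes upward and 1.73% downward. Spread in DEN WT was wide, and its extremes DEN WT 1 and DEN WT 6 enclosed the LKO libraries for most genes. Without the 3 low-Ftcd WT libraries the median was -0.52, against -0.41 for all tested genes, and 31 genes were lower. In that fit 8 genes were lower and 1 higher at an unadjusted limma p under 0.05, which 4674 of all tested genes reached. Separation was not counted without these libraries, and for some genes, such as Bst2, the overlap came from DEN WT 1 alone. Gbp2, at -1.55, reached an adjusted p of 0.0701, the smallest for any of the genes in any comparison or alternative, while 1159 of all tested genes passed in place of 8. With mitochondrial share as a covariate 35 genes were higher and the median was 0.32, against 0.22 for all tested genes.

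The difference between the 2 genotype effects, after DEN minus untreated, was positive for 33 of the 39 genes, with a median of 0.55 against 0.11 for all tested genes. Igtp had 1.54 (SE 1.00), Cxcl9 1.49 (SE 0.80), Ifi44 1.35 (SE 0.66) and Gbp3 1.29 (SE 0.71). By limma 0 genes passed among the 35, 0 had an unadjusted p under 0.05, and the smallest adjusted p was 1 (2.39% of all tested genes had an unadjusted p under 0.05 and 0.0% passed). A lower level in LKO in untreated liver only was therefore not shown.

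Tumour and nontumour liver of LKO mice were compared next. Means were higher in tumour for 31 of the 39 genes, with a median of 0.25, but the median of all tested genes was 0.23 and 69.0% of them were higher. Median-ratio scaling brought the 2 medians to 0.07 and 0.01 and left 21 genes higher. The highest differences were Cxcl10 at 1.25 (SE 0.70), Zbp1 at 1.04 (SE 0.62), Usp18 at 1.03 (SE 0.74), Gbp2 at 0.94 (SE 0.64) and Isg15 at 0.82 (SE 0.57). For each of these 5 genes tumour 1 lay inside the nontumour range and tumours 2 and 3 above it, and each tumour was above the nontumour library of the same number. Oas2 had the lowest difference at -0.40 (SE 0.29).

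No gene was separated between tumour and nontumour tissue, against 1.81% of all tested genes upward and 2.02% downward. By limma 0 of 35 passed, as did 0.0% of all tested genes, and 0 of the 35 had an unadjusted p under 0.05 (2.74% of all tested genes). Summed T and NK cell markers ran from 5.07 to 30.9 TPM in tumour and 4.66 to 12.6 TPM in nontumour liver, highest in tumour 3, and had higher means in tumour for 7 of 8. Kupffer cell and macrophage markers summed to 97.1 to 449 TPM in tumour and 122.9 to 318 TPM in nontumour liver, with 3 of 9 separated downward. For another 3 the tumour mean was higher: Lyz2 at 115 against 40.3 TPM, Cd68 at 37.3 against 11.7 TPM and Csf1r at 10.4 against 7.05 TPM. The part of these cells was not tested.

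In WT mice, DEN livers were compared with untreated livers. Means were higher for 17 genes and lower for 22, and the median of -0.04 was near that of all tested genes, 0.02. All 4 OAS genes were on the higher side, though Oas2 (0.02) turned under quantile normalization, with Oasl2 at 0.55 (SE 0.49) and Oas1a at 0.53 (SE 0.41). Igtp was lower by the widest margin, -0.70 (SE 0.66). No gene was separated (0.49% of all tested genes upward, 0.18% downward), 0 passed limma (0.0% of all genes), and 0 had an unadjusted p under 0.05 (0.685% of all tested genes). Without the 3 low-Ftcd WT libraries 27 were higher and the median was 0.11, against 0.15 for all tested genes. With DEN, Kupffer cell and macrophage markers had higher means for 9 of 9, with 1 separated. They summed to 113.7 to 504.5 TPM, against 63.9 to 217.6 TPM in untreated WT. Means were also higher for 8 of 8 T and NK cell, 4 of 4 B cell, 4 of 4 plasmacytoid dendritic cell and 2 of 2 leukocyte markers. For hepatocytes 5 of 6 were higher, for endothelial cells 5 of 5, and for neutrophils and cholangiocytes 3 of 4 each. The part of cell composition was not tested.

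In LKO mice, nontumour liver after DEN had higher means than untreated liver for 36 of the 39 genes. The median difference was 0.48, against 0.12 for all tested genes, of which 61.6% were higher, and 30 genes were higher after median-ratio scaling. This comparison shares its 3 untreated LKO libraries with the untreated genotype comparison, in which the same libraries were low, so the 2 are not independent. The genes with an unadjusted p under 0.05 were Ifi44 at 1.39 (SE 0.50), Cxcl9 at 1.33 (SE 0.60), Gbp3 at 1.19 (SE 0.53), Xaf1 at 1.05 (SE 0.42) and Oas2 at 0.81 (SE 0.29). These 5 (background 5.96% of all tested genes) had limma adjusted p from 0.611 to 0.797. None of the 35 passed (0.0649% of all genes did).

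For 10 of the 39 genes every nontumour LKO library given DEN was above every untreated LKO library: Stat2, Ifit2, Mx1, Oas2, Oas3, Gbp3, Gbp7, Cxcl9, Ifi44 and Xaf1. Of the tested genes 7 of 35 were separated upward, against 9.86% of all tested genes, and none was separated downward, against 2.46%. Without untreated LKO 3 the count was 21 (23.4% of all tested genes), and without DEN LKO nontumour 1 it was 20 (25.3%). Several marker lists were higher as well. Kupffer cell and macrophage markers summed to 122.9 to 318 TPM after DEN against 39.1 to 70.1 TPM, with 8 of 9 markers separated upward. T and NK cell markers summed to 4.66 to 12.6 TPM against 1.83 to 2.08 TPM, with 7 of 8 means higher and 3 separated. Ptprc with Coro1a summed to 4.99 to 20.0 TPM against 2.39 to 3.02 TPM. Means were also higher for 4 of 4 B cell, 5 of 5 endothelial, 4 of 4 cholangiocyte and 3 of 4 neutrophil markers. Plasmacytoid dendritic cell markers were higher for 2 and lower for 2, and hepatocyte markers higher for 2 and lower for 4. The part of cell composition in the higher interferon response genes was not tested.

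Ligands, receptors and further induced genes outside the 39 were read from a list of 94 pathway genes, 74 of which were tested. Of 10 interferon genes, 9 (Ifnb1, Ifna1, Ifna2, Ifna4, Ifna5, Ifnk, Ifne, Ifnl2 and Ifnl3) were listed at 0 in all 18 libraries. Interferon gamma was at or below 0.43 TPM and at 0 in 10 libraries. Receptor transcripts were present: Ifnar2 was at 17.0 to 107.2 TPM, Ifnar1 at 2.98 to 11.65 TPM, Ifngr1 at 0.93 to 24.5 TPM and Ifngr2 at 1.70 to 11.9 TPM, while the lambda receptor Ifnlr1 did not exceed 0.34 TPM. Irf3, the factor that starts interferon transcription, was at 24.5 to 71.5 TPM, and the receptor inhibitor Socs1 at 0.020 to 0.75 TPM.

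No gene of the pathway list passed limma in any comparison. In untreated liver 68 of the 74 tested had lower means in LKO (median -0.49) and 4 had an unadjusted p under 0.05, all lower, where 76.1% of all tested genes were lower and 4.15% reached that p. The 4 were Ifi27l2a at -1.22, Apol9a at -1.27, Apol9b at -1.13 and Adar at -1.07. In LKO mice, DEN against untreated liver gave higher means for 65 of the 74 (median 0.44), and 13 had an unadjusted p under 0.05, all higher, where 61.6% of all tested genes were higher and 5.96% reached that p. They included the chemokine Ccl5, with 30.2 ± 17.8 against 4.05 ± 1.33 TPM (SD, n = 3 each), Ifi27l2a with 63.9 ± 27.9 against 19.1 ± 9.20 TPM, and the nuclear DNA-binding gene Ifi203 with 4.88 ± 1.04 against 1.23 ± 0.53 TPM. After DEN, LKO against WT nontumour liver gave 5 genes higher and 1 lower at an unadjusted p under 0.05, which 13.1% of all tested genes reached. Ifi203 had the smallest adjusted p of these, 0.223 by limma, at 1.12, with all 3 LKO libraries above all 6 WT libraries. Tumour against nontumour liver and DEN against untreated WT liver gave 0 genes at that level. In the difference of genotype effects 4 were positive at an unadjusted p under 0.05, which 2.39% of all tested genes reached: Ifi203, Ifi27l2a, Epsti1 and Slfn5.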

How the data were processed

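Liver and tumour RNA was sequenced, and the authors deposited 1 table of gene-level TPM values for 18 libraries. The submitters' processing notes name fastp, HISAT, RSEM and the mm10 genome. No source used here gives their roles, versions or settings. TPM keeps no depth, so the depth per library, and the counting error it sets, is unknown. The authors' deposited group means matched the library columns within 3.3e-05 TPM, and 0 columns belonged to other samples.

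Groups came from the sample labels. Genes with 1 TPM or more in 3 or more libraries (13872 genes) were transformed as log2(TPM + 1), and fitted with limma 3.58.1 (R 4.3.3) as 5 group means with 13 residual degrees of freedom. Benjamini-Hochberg adjustment ran over all tested genes at 0.05. Fold changes on this scale understate changes of low genes. "Separated" means that the libraries of 2 groups do not overlap in TPM. The fit was tested on simulated data.

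The genes, pathway list and markers were chosen with earlier results of these data known. Per-library values were given for a fixed set of representative genes of each role and for up to 3 further genes per comparison with the largest differences among those at a mean of 1 TPM or more whose groups did not overlap. Xaf1, Oas2 and Trim30a were added after their values were seen. Alternatives changed the scaling, pseudocount, filter, model terms and libraries. The counts of separated genes under other scalings or with libraries left out were all added after seeing the data. Scripts ran in Python 3.11.15.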

Additional observations from a re-analysis of the deposited data

Results flagged for a closer look

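Each of the 39 interferon response genes was examined in DEN WT, the one group with 4 to 10 libraries, for a library far from the other 5. On the log2(TPM + 1) scale, the gap exceeded Dixon's 95% limit for 6 values, 0.625 of the range, in 5 genes. Chance flags about 1 in 20 groups. Values below are given in TPM. The share of all tested genes flagged in this way was not computed. Among all tested genes DEN WT 6 was the highest of the 18 libraries for 28.0%, and DEN WT 1 the lowest for 20.8%. The flags may therefore not be particular to the interferon response genes. Ifit2 in DEN WT 6 was at 1.87 TPM, with the other 5 libraries at 0.22 to 0.43 TPM. Gbp7 in the same library was at 4.94 TPM, with the others at 0.53 to 1.37 TPM. In DEN WT 1, Bst2 was at 74.6 TPM against 287.8 to 403 TPM and Ifitm3 at 424 TPM against 1090.5 to 1553 TPM. Trim30a in DEN WT 1 was at 37.9 TPM against 0.84 to 4.24 TPM in the others. DEN WT 1 had low Ftcd (2.36 TPM) and a mitochondrial share of 38.8%; the part of these in the values was not tested.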

How the results depend on the processing

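No interferon response gene passed limma in any of the 6 comparisons under any of the 27 alternatives. Median differences of the 39 genes on the log2 scale moved by more than the replicate spread in 4 cases. In untreated liver the median was -1.51 with a term for sex and -0.14 with mitochondrial share, in place of -0.76; for all tested genes it was -0.95, 0.03 and -0.33. For DEN LKO nontumour against DEN WT it was -0.78 with the sex term in place of -0.15. The median of all tested genes there was -0.625 in place of -0.195. For DEN against untreated LKO it was 0.81 with a pseudocount of 0.1 TPM in place of 0.48, not set here against all tested genes. The cause was not tested. The DEN genotype median also changed sign with mitochondrial share, to 0.32, against 0.215 for all tested genes.

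Leaving out 1 library at a time gave medians of -0.99 to -0.42 (untreated genotype), -0.37 to -0.05 (DEN genotype), 0.02 to 0.59 (tumour), -0.19 to 0.20 (DEN in WT), 0.35 to 0.64 (DEN in LKO) and 0.19 to 0.74 (difference of genotype effects). Separated genes then numbered 13 to 28 in untreated liver, where the share of all tested genes was 11.1% to 40.2%. For DEN in LKO they numbered 10 to 21, with a share of 11.2% to 25.3%. Without the 3 low-Ftcd WT libraries 23 were separated in untreated liver (21.0% of all tested genes). In each of these cases 1 of the compared groups held only 2 libraries.

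Over all tested genes, the untreated count of 60 became 10 with the replicate block, 26 with the sex term and 93 with median-ratio scaling. The DEN genotype count of 8 became 0 with the block and 1159 without the low-Ftcd libraries, and the DEN in LKO count of 9 became 189 with the sex term. With replicate number as a block, 0 of the interferon response genes passed in each comparison, and medians were -0.76, -0.03, 0.25, -0.22, 0.48 and 0.75. For all tested genes the block gave medians of -0.33, 0.02, 0.23, -0.21, 0.12 and 0.34 in the same order. Replicate numbers 4, 5 and 6 occurred in DEN WT only. Blocked comparisons with DEN WT therefore rested on DEN WT 1, 2 and 3, of which DEN WT 1 and DEN WT 2 had low Ftcd. The labels do not say that a number marks a shared animal. Deviations of same-numbered tumour and nontumour libraries correlated at 0.35, 0.30 and -0.03, and those of the other comparisons at -0.63 to 0.23, so in no comparison were all 3 positive.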
